A study of Rattus norvegicus with 6 samples.

Results

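miR-128 and miR-153 are microRNAs enriched in neurons, and their 5 mature strands were followed in small RNA libraries of rat brain. The members were the rows rno-miR-128-3p, rno-miR-128-1-5p, rno-miR-128-2-5p, rno-miR-153-3p and rno-miR-153-5p (rno for rat, left out from here on), 5 of the 775 miRNAs in the deposited count table. They were chosen by name, and every one of them had a row. The libraries came from male Sprague-Dawley rats, purchased at 7 weeks of age, in which both common carotid arteries had been ligated (2-vessel occlusion, 2VO, a model of vascular dementia). The 3 libraries of the 2VO group came from rats given the vehicle, 0.5% CMC-Na at 5 mL/kg, by gavage. The 3 libraries of the tilianin-treated 2VO group came from rats given 40 mg/kg of tilianin, a flavonoid glycoside, in that vehicle every day for 4 weeks. Unoperated or sham rats were not analysed here, so all values compare occluded brains with and without tilianin. The labels give the tissue as brain without a region, whereas the paper's caption for its sequencing figure names cortical tissue. The labels also do not say whether 1 library is 1 rat, so the spread between libraries may be partly technical.

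A microRNA is cut from a hairpin precursor whose arms are named 5p and 3p. Usually one arm (the guide) is loaded into an Argonaute protein and kept, and the other (the passenger) is mostly degraded. The guide finds its target mRNAs mainly through its seed, bases 2 to 8. miR-128-3p is the guide of miR-128 and is known as one of the abundant miRNAs of mature forebrain neurons, where it restrains excitability. miR-153-3p is the guide of miR-153 and is known to repress proteins of vesicle release.

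The mature strands are shown first because the seeds separate the families and because the miR-128 guide is the same molecule from both of its genes. The sequences are those of RefSeq (build GRCr8), written 5′ to 3′ with the seed in capitals, and all 5 members matched by name.
miR-128-3p: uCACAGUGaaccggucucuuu
miR-128-1-5p: cGGGGCCGuagcacugucuga
miR-128-2-5p: gGGGGCCGaugcacuguaaga
miR-153-3p: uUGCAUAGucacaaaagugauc
miR-153-5p: gUCAUUUUugugauguugcagcu

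The hairpins show how the passengers tell the miR-128 genes apart. Capitals mark the mature arms.
mir-128-1: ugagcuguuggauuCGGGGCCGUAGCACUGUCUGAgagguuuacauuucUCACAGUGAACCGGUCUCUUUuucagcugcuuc
mir-128-2: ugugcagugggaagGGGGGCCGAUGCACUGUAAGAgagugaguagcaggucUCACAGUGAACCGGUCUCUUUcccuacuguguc
mir-153: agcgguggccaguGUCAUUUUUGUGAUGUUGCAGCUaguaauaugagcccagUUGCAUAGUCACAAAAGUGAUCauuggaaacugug

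In GRCr8 the mir-128-1 hairpin lies at chr13:42251884-42251965 on the plus strand, within the span of R3hdm1, which encodes an RNA-binding R3H domain protein. The mir-128-2 hairpin lies at chr8:120963795-120963878 on the minus strand, within the span of Arpp21, which encodes a cAMP-regulated phosphoprotein of neurons. The mir-153 hairpin lies at chr6:144306594-144306680 on the plus strand, within the span of Ptprn2, which encodes a protein of dense-core vesicles. These are positions of the reference and not of the authors' alignment, whose build is not given in the sources used here. The miR-128 hairpins share 62 of 84 aligned positions (73.8%). Their 5p arms share 16 of 21 positions and the whole seed, whereas the 3p arm is identical, so a read of miR-128-3p cannot be assigned to either gene.

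Total counts were 7175872 to 13198776 per library, and 454 miRNAs reached the minimum of 10 counts summed over the libraries and were tested. Values per library are CPM, that is, counts scaled to a common library total, after TMM scaling, in which 1 count was 0.0772 to 0.154 CPM. Tilianin replicate 2 stood apart. Over the tested miRNAs its Spearman correlation with any other library was 0.936 to 0.957, whereas the other 5 libraries correlated at 0.983 to 0.992 among themselves. Comparisons of the groups are therefore given with and without it. The brain label was checked on miR-124-3p, a miRNA that marks neurons, which had 74146 to 98573 CPM in the other 5 libraries and 55804 CPM in tilianin replicate 2.

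The guide of miR-128 was abundant in both groups and showed no difference between them beyond the spread of the libraries. In the 2VO libraries 1 to 3 the level of miR-128-3p was 17881, 17574 and 28697 CPM, and in the tilianin libraries 1 to 3 it was 24221, 3885 and 23657 CPM. Tilianin replicate 2 was far below the other 5 libraries, and the remaining treated libraries lay inside the range of the 2VO libraries, so the groups overlapped. In bulk tissue, fewer cells of a type and less RNA per cell cannot be told apart. The 2VO group averaged 21384 ± 6335 CPM, and the tilianin group averaged 17254 ± 11581 CPM (SD, n = 3 each). It ranked 12th to 14th of all miRNAs in the other 5 libraries, with 1.73% to 2.99% of the counts, and 30th in tilianin replicate 2, with 0.352%. The log2 fold change (tilianin over 2VO) was -0.31 with a standard error of 0.615 and a 95% interval of -1.76 to 1.14, and the adjusted p was 0.896 (edgeR's quasi-likelihood test). Without tilianin replicate 2 the estimate was 0.19, with a 95% interval of -0.28 to 0.66 and an adjusted p of 0.997 by the same edgeR test.

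The passenger strand from mir-128-1 was read at a small fraction of the guide and had the same pattern. In the 2VO libraries 1 to 3 the level of miR-128-1-5p was 12.1, 16.8 and 18.9 CPM, and in the tilianin libraries 1 to 3 it was 16.9, 2.00 and 15.99 CPM. The low library again was tilianin replicate 2, on 13 counts, for which counting error alone gives a 95% interval of 1.07 to 3.42 CPM (exact Poisson). That interval ended below the lowest of the other 5 libraries, which was 2VO replicate 1. The log2 fold change was -0.44 with a standard error of 0.658, a 95% interval of -1.99 to 1.11 and an adjusted p of 0.871 by edgeR's quasi-likelihood test. It was 0.0705 without tilianin replicate 2, with a 95% interval of -0.46 to 0.61.

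The passenger strand from mir-128-2 was almost absent from the table. miR-128-2-5p had 0 counts in 5 libraries and 1 count in tilianin replicate 3, against 13 to 218 counts of miR-128-1-5p per library. Over all libraries it held 1 of 776 passenger counts, or 0.129% (Wilson 95% interval 0.0228% to 0.726%, for counting error only). In single libraries a count of 0 allows a share of miR-128-2-5p among the passenger counts of up to 1.38% in 2VO replicate 2, the library with the most such counts, and up to 23.1% in tilianin replicate 2, the library with the fewest. The strand has no fold change here, since its 1 count in all was under the minimum of 10 counts. Both groups were at or under 3 counts per library. A count near 0 in this table need not mean that the strand was missing from the tissue, because the counting rules are not given in the sources used here. In this table the passenger reads were thus those of the R3hdm1 locus, with 1 of the Arpp21 locus. How the 1055663 counts of the guide divide between these genes cannot be read from them.

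The guide of miR-153 was about an order of magnitude less abundant than that of miR-128 and was steadier between libraries. In the 2VO libraries 1 to 3 the level of miR-153-3p was 2089, 2200 and 2367 CPM, and in the tilianin libraries 1 to 3 it was 2022, 674 and 2298 CPM. The 2VO libraries and tilianin replicates 1 and 3 lay close together, and tilianin replicate 2 was again alone at the bottom. The coefficient of variation in the 2VO group was 6.32% for miR-153-3p and 29.6% for miR-128-3p (n = 3 each). The log2 fold change was -0.41 with a standard error of 0.425, a 95% interval of -1.41 to 0.59 and an adjusted p of 0.841 (edgeR's quasi-likelihood test). Without tilianin replicate 2 it was -0.021, with a 95% interval of -0.39 to 0.35 and an adjusted p of 0.997 by edgeR.

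The 5p arm of miR-153 followed its guide at a lower level. In the 2VO libraries 1 to 3 the level of miR-153-5p was 53.8, 49.5 and 58.3 CPM, and in the tilianin libraries 1 to 3 it was 54.8, 16.8 and 57.7 CPM. Apart from tilianin replicate 2, all libraries were between 49.5 and 58.3 CPM, and the treated ones lay within the range of the 2VO ones. The log2 fold change was -0.32 with a standard error of 0.430, a 95% interval of -1.33 to 0.69 and an adjusted p of 0.861 from edgeR's quasi-likelihood test. The estimate without tilianin replicate 2 was 0.0813, with a 95% interval of -0.31 to 0.47.

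**Figure D1:**
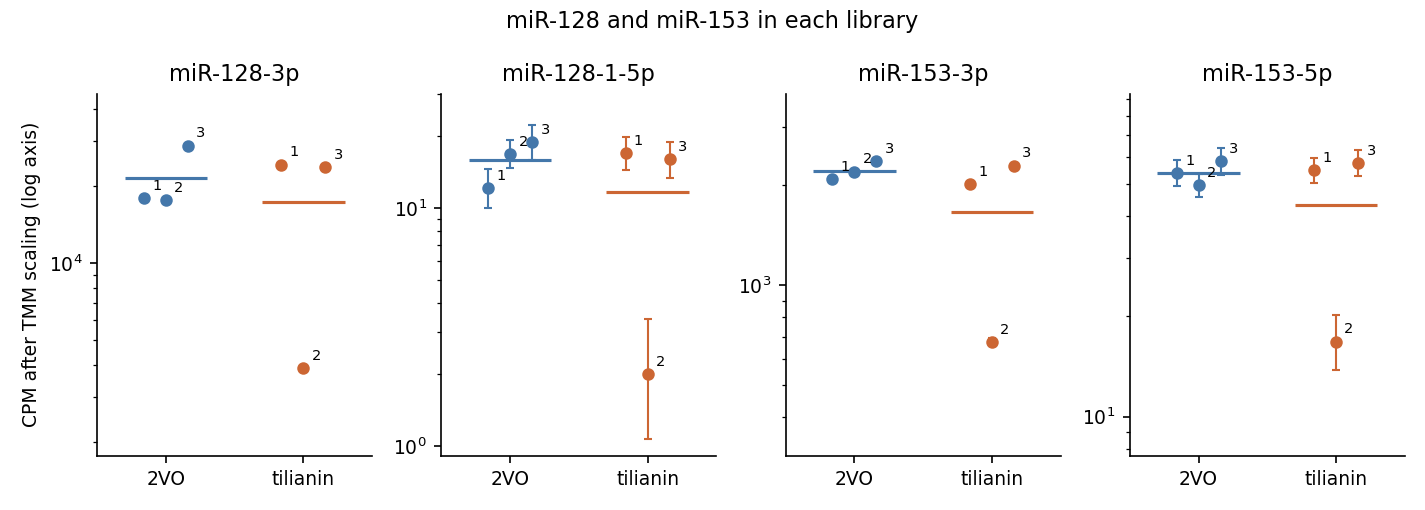
CPM after TMM scaling (log axis, a separate range in each panel) of the 4 tested strands in the 2VO and tilianin libraries; points are libraries with their replicate number, bars on points are 95% Poisson intervals for counting error and horizontal lines are group means. In each panel tilianin replicate 2 is the lowest library, at 3885 CPM for miR-128-3p and 674 CPM for miR-153-3p, and the other treated libraries sit among or beside the 2VO libraries.

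None of the 4 tested strands passed the criterion of the study (unadjusted p below 0.05 with an absolute log2 fold change above 1). Over all tested miRNAs 4.63% were higher and 1.10% were lower by it, and 7.27% had an unadjusted p below 0.05 in either direction. None of the 4 had groups that did not overlap, against 4.19% of all tested miRNAs lower and 5.51% higher without overlap, and none had a log2 fold change below -0.5, against 10.1% of all. That count depended on the method and the libraries. It was 4 of 4 with limma-voom (14.1% of all miRNAs) and 3 of 4 with the replicate number as a block (13.7% of all). It was also 4 of 4 without tilianin replicate 1 (16.7% of all) and without tilianin replicate 3 (19.2% of all), and 1 of 4 without 2VO replicate 1 (12.0% of all). With tilianin replicate 2 left out, none of the 4 had an unadjusted p below 0.05, against 4.49% of all. The unadjusted p-values of the members in edgeR's quasi-likelihood test were 0.630 for miR-128-3p, 0.521 for miR-128-1-5p, 0.361 for miR-153-3p and 0.481 for miR-153-5p. The 4 estimates were all below 0 with all libraries, where the median over all tested miRNAs was -0.034, and 3 of them were above 0 without tilianin replicate 2. With all 6 libraries the intervals of the strands reached beyond a log2 fold change of -1, so a level reduced to 0.5 times lay within them. Without tilianin replicate 2 the intervals of all 4 strands lay between -0.46 and 0.66, inside that of a 2-fold change either way. Those intervals rest on leaving out the library that was lowest for all 4 strands, so they do not bound the effect of tilianin over the 6 libraries.

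**Figure D2:**
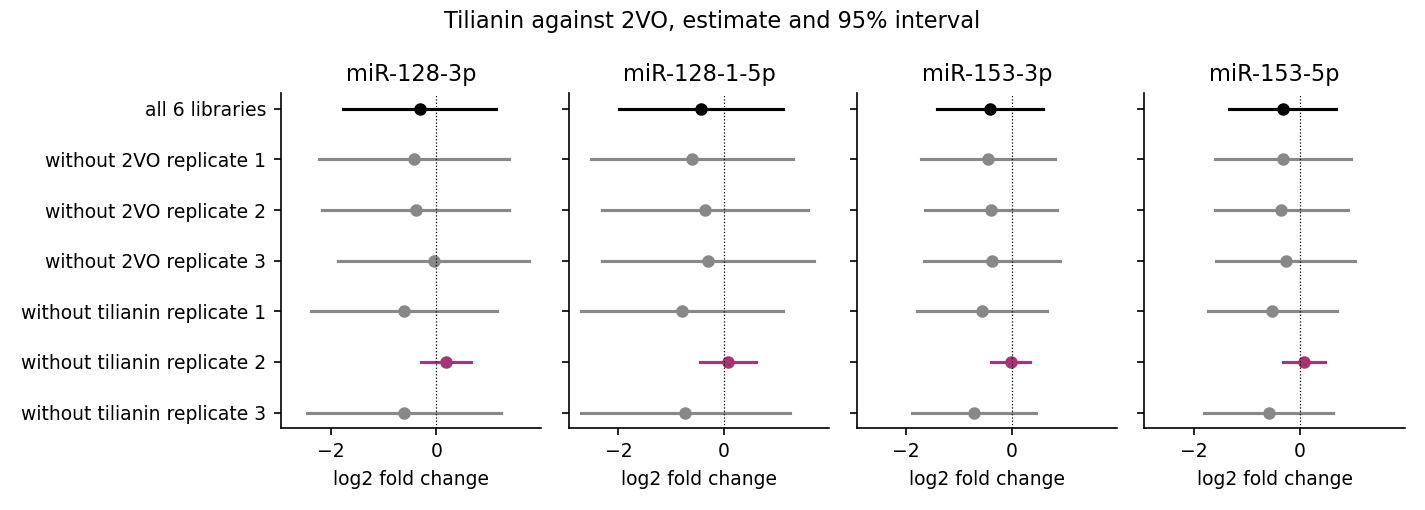
Log2 fold change (x axis, tilianin over 2VO) of the 4 tested strands by edgeR's quasi-likelihood method, for the 6 libraries together and without each of them; points are estimates and lines are 95% intervals. The intervals without tilianin replicate 2 are the narrowest and are centred near 0, from -0.021 for miR-153-3p to 0.19 for miR-128-3p.

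The order of the members was the same in each of the 6 libraries, with miR-128-3p highest, then miR-153-3p, miR-153-5p, miR-128-1-5p and miR-128-2-5p. Between libraries only neighbours at the lower end met, since miR-153-5p in tilianin replicate 2 (16.8 CPM) lay under miR-128-1-5p in 2VO replicate 3 (18.9 CPM). All strands are 21 to 23 bases long and each read is 1 strand, so no scaling by length was needed. Reads per strand also depend on adapter ligation, which was not measured here.

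Ratios of 2 strands within a library do not depend on how the library is scaled. The ratio of miR-153-3p to miR-153-5p counts was 38.8, 44.4 and 40.6 for 2VO libraries 1 to 3, against 36.9, 40.2 and 39.8 for tilianin libraries 1 to 3. The arms of miR-153 thus kept nearly the same proportion in the library where both were about 3 times lower. The ratio of miR-128-3p to its summed 5p arms was 1478, 1045 and 1519 for 2VO libraries 1 to 3, against 1430, 1941 and 1468 for tilianin libraries 1 to 3. The value of tilianin replicate 2 rests on 13 passenger counts, and its exact binomial 95% interval of 1135 to 3645 (for counting error) holds that of 4 of the other 5 libraries. The library outside it was 2VO replicate 2, whose own interval was 915 to 1198.

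The ratio of the guides ranged from 5.76 to 12.1 over the libraries. miR-128-3p exceeded miR-153-3p by 8.56, 7.99 and 12.1 times for 2VO libraries 1 to 3, and by 12.0, 5.76 and 10.3 times for tilianin libraries 1 to 3. The mean log2 ratio was 3.23 ± 0.322 in the 2VO group and 3.16 ± 0.557 in the tilianin group (SD, n = 3 each). The 4 ratios were compared between the groups by a two-sided exact permutation test, whose smallest p is 0.1 for 3 libraries against 3, so that none could pass 0.05. The exact permutation p was 0.9 for miR-128-3p to miR-153-3p, 0.4 for the arms of miR-153, 0.6 for the arms of miR-128 and 0.3 for miR-128-1-5p to miR-128-2-5p, and the Benjamini-Hochberg adjusted values were 0.8 to 0.9. Without tilianin replicate 2 the difference in the log2 ratio of the guides was 0.24 in place of -0.074, and the difference for miR-128-1-5p to miR-128-2-5p was -0.88 in place of -1.76. The last of these ratios has a denominator of 0 counts in 5 libraries and 1 count in the other and mainly follows the number of miR-128-1-5p reads.

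**Figure D3:**
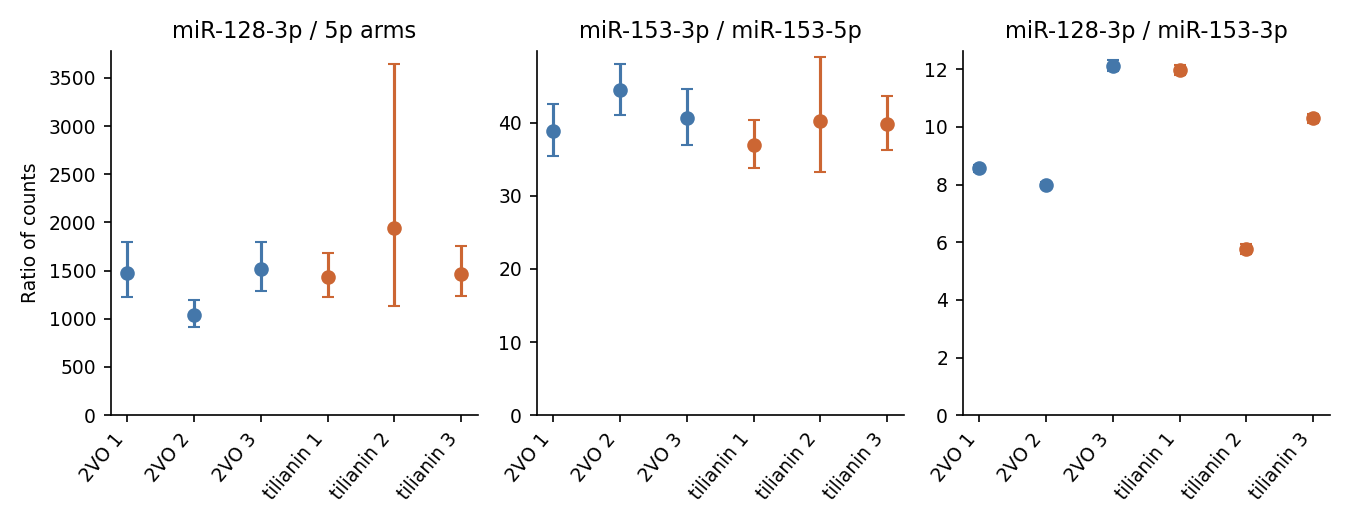
Ratios of counts between 2 strands in each library (y axes from 0), with exact binomial 95% intervals for counting error; blue marks 2VO and orange marks tilianin libraries. The miR-153 arms stay between 36.9 and 44.4, the miR-128 arms are lowest in 2VO replicate 2 at 1045, and the guide ratio is lowest in tilianin replicate 2 at 5.76.

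Tilianin replicate 2 was then compared with the mean of the other 5 libraries, as a description of 1 library with no test. It was the lowest of the 6 libraries for all 4 tested strands, and for 33.3% of all tested miRNAs. The mean of the other 5 libraries was 5.77 times its level for miR-128-3p and 8.07 times its level for miR-128-1-5p. For miR-153-3p and miR-153-5p the mean of the other 5 libraries was 3.25 and 3.27 times its level. Both miR-128 strands were thus lower in that library by a larger factor than both miR-153 strands. Among the 269 miRNAs with a mean of at least 10 CPM, ordered by log2(CPM + 1) in this library minus that of the mean of the others, miR-128-3p and miR-128-1-5p were the 9th and 10th lowest, and miR-153-3p and miR-153-5p were the 16th and 17th. In this library 39.8% of those 269 miRNAs were below each of the other libraries, and 43 of them were below the others by more than 1 on that scale. The median of the 269 was -0.053, and the 4 strands were between -2.53 and -1.65.

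**Figure D4:**
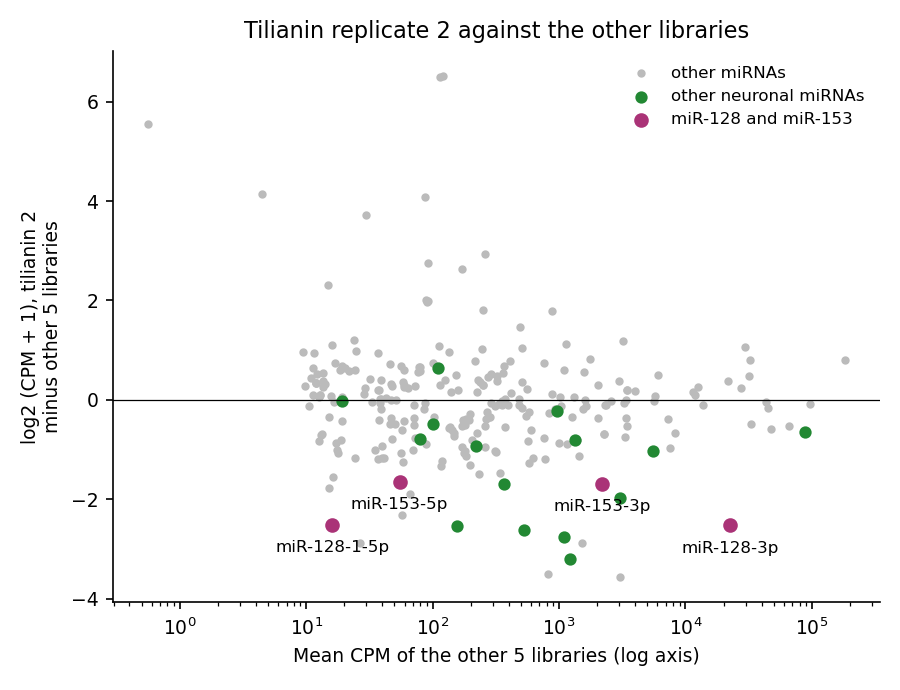
Difference of log2(CPM + 1) between tilianin replicate 2 and the mean of the other 5 libraries (y axis) against that mean (x axis, log scale) for the 269 miRNAs with a mean of at least 10 CPM. The miR-128 and miR-153 strands lie between -2.53 and -1.65, near several other neuronal miRNAs, while the median of all points is -0.053.

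Other miRNAs that are enriched in neurons were lower in tilianin replicate 2 as well, though not all of them. Of a list of 18 such strands without the members, 17 were tested and 12 had their lowest CPM in this library. The share was 33.3% of all tested miRNAs and 39.8% of those with a mean of at least 10 CPM. The 12 are not separate miRNAs, since both arms of miR-132, miR-212 and miR-137 are among them. Low levels were not confined to that list, since the lowest of the 269 miRNAs, miR-221-3p (-3.57), is not on it. miR-139-5p differed most among them, with 956 to 1421 CPM in the other 5 libraries and 133 CPM in this one. miR-132-3p, which is induced by neuronal activity, had 395 to 699 CPM in the others and 85.2 CPM in this one. miR-129-5p, with 789 to 1281 CPM in the others and 827 CPM in this one, stayed within their range. miR-134-5p, a miRNA of dendrites, went the other way, with 94.3 to 120 CPM in the others and 173 CPM in this one. The summed list was 90527 to 111142 CPM over the 2VO libraries, 103748 to 112603 CPM in tilianin replicates 1 and 3, and 61821 CPM in tilianin replicate 2, and miR-124-3p made up most of the sum (55804 CPM in that library).

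Between the groups, 1 of the 17 tested neuronal miRNAs had an unadjusted p below 0.05, against 7.27% of all tested miRNAs (edgeR's quasi-likelihood test). Of the 17, 0 passed the criterion of the study. The miRNA with p below 0.05 was miR-7a-5p, whose log2 fold change was -0.89 with an SE of 0.353 (unadjusted p = 0.0395, edgeR). The median log2 fold change of the list was -0.33, against -0.034 over all tested miRNAs, and 15 of the 17 estimates were negative. Without tilianin replicate 2, which was left out after its values were seen, 0 of 17 had an unadjusted p below 0.05, against 4.49% of all. The median of the list was then -0.066, against 0.0096 over all, and 9 were negative. The estimate of miR-7a-5p was still -0.73 (unadjusted p = 0.0597, edgeR). Its level was 8532, 7541 and 3508 CPM in the 2VO libraries 1 to 3, and 3966, 2706 and 3901 CPM in the tilianin libraries 1 to 3. Its groups overlapped, since 2VO replicate 3 lay below tilianin replicates 1 and 3. The median and signs of the list thus moved with the same library as miR-128 and miR-153, whereas the estimate of miR-7a-5p mostly remained.

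Several lists of markers of other tissues and cell types also moved in tilianin replicate 2, and their part in the low miR-128 and miR-153 was not tested. The Hox-cluster list, which marks caudal levels of the nervous system, summed to 89.8 to 149 CPM among 2VO libraries, 321 to 489 CPM in the other treated libraries and 21658 CPM in this one, where miR-10a-5p and miR-10b-5p made up nearly the whole sum. The choroid plexus list summed to 120 to 151 CPM among 2VO libraries, 122 to 348 CPM in the other treated libraries and 1074 CPM in this one, of which miR-204-5p was 1064 CPM. In the same list miR-449a-5p was at 0.924 CPM in this library and 0.647 to 2.78 CPM in the others, with a log2 fold change of -0.59 (unadjusted p = 0.345, edgeR). The muscle list summed to 88.5 to 131 CPM among 2VO libraries, 121 to 182 CPM in the other treated libraries and 492 CPM in this one. The erythroid list was at 881 CPM in this library, 155 to 199 CPM among 2VO libraries and 338 to 406 CPM for the remaining treated pair. The myeloid list was at 746 CPM in it, 326 to 456 CPM among 2VO libraries and 457 to 496 CPM for the remaining treated pair. The endothelial list, at 6509 CPM in it and 5372 to 8553 CPM over the 2VO libraries, did not stand apart. The 4 rows of the oligodendrocyte list were low everywhere, summing to 18.2 to 35.3 CPM over the 2VO libraries and 50.5 CPM in tilianin replicate 2. That holds for these named rows only. The row miR-219b, which is not on the list, had 260 CPM in 2VO replicate 3, its lowest library, and 1368 CPM in tilianin replicate 2, its highest. By the criterion of the study, 2 of 3 tested Hox-cluster, 2 of 3 choroid plexus, 1 of 3 muscle, 1 of 2 erythroid, 1 of 3 myeloid, 0 of 2 endothelial and 0 of 2 oligodendrocyte miRNAs were higher with tilianin. When tilianin replicate 2 was left out, after its values were seen, miR-10a-5p and miR-10b-5p (2 of 2 Hox-cluster miRNAs tested), 1 of 3 choroid plexus and 1 of 2 erythroid miRNAs still passed, and 0 of 3 muscle and 0 of 3 myeloid miRNAs did. Over all tested miRNAs, 4.63% were higher by that criterion with all libraries, and 9 of 445 were without tilianin replicate 2. miR-196b-5p of the Hox-cluster list and miR-138-2-3p of the neuronal list were at 0 in every library.

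The miRNAs whose levels were most like those of miR-128-3p over the 6 libraries were miR-495, miR-129-1-3p and miR-132-3p, with Pearson correlations of log2(CPM + 1) of 0.998, 0.992 and 0.992 among 268 miRNAs compared. Those most like miR-153-3p were miR-139-3p, miR-221-3p and miR-153-5p, with 0.994, 0.992 and 0.992. All these values share the 6 libraries and rest largely on tilianin replicate 2. Over the other 5 libraries miR-495 was still at 0.981 to miR-128-3p, whereas miR-132-3p fell to 0.885, and the miRNAs listed for miR-153-3p were at 0.447 to 0.453. The guides themselves were at 0.973 over 6 libraries and at 0.460 over those 5.

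Seeds that overlap those of the guides were carried by miRNAs with other levels. They are shown here in the same way for comparison with the guides above.
miR-27a-3p: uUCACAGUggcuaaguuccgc
miR-27b-3p: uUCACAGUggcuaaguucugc
miR-448-3p: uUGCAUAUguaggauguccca

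Of the 775 miRNAs in the table, 689 had a RefSeq mature sequence, and among these none other than the member itself had the seed of miR-128-3p, miR-153-3p or miR-153-5p at bases 2 to 8. The miR-128-3p seed occurs in miR-27a-3p and miR-27b-3p from base 3 on, that is, shifted by 1 base. It also occurs in miR-216a-3p from base 1 on, a miRNA with 20 counts in all, at 0 to 0.217 CPM in the other 5 libraries and 2.31 CPM in tilianin replicate 2 (log2 fold change 2.79, SE 1.46, unadjusted p = 0.0974, edgeR). miR-27b-3p had 11155 to 15153 CPM in the 6 libraries, with 15153 CPM in tilianin replicate 2. miR-27a-3p had 2746 to 4367 CPM, with 3997 CPM in tilianin replicate 2. Neither miR-27 strand was low in the library where miR-128-3p was low, and their log2 fold changes were 0.13 (standard error 0.177) for miR-27b-3p and 0.25 (standard error 0.213) for miR-27a-3p. With tilianin replicate 2 left out they were 0.066 for miR-27b-3p and 0.25 for miR-27a-3p.

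miR-448-3p shares bases 2 to 7 with miR-153-3p and moved the opposite way in tilianin replicate 2. In the 2VO libraries 1 to 3 its level was 32.9, 20.8 and 15.0 CPM, and in the tilianin libraries 1 to 3 it was 62.9, 403 and 17.6 CPM. The groups overlapped, since tilianin replicate 3 lay within the 2VO libraries. By edgeR's quasi-likelihood test the log2 fold change was 2.81 with an SE of 1.05 (unadjusted p = 0.0310, adjusted p = 0.637), which passed the criterion of the study. The call was lost without tilianin replicate 2, at 0.83 (unadjusted p = 0.118, edgeR). miR-153-3p had the higher CPM of both in every library, with the closest levels in tilianin replicate 2 (674 and 403 CPM). A rise in that library was not particular to miR-448-3p. For example, miR-1298 had 1482 CPM there, against a mean of 86.6 CPM in the other 5 libraries. Any part of the shared seed bases in the opposite shifts was not tested.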

How the data were processed

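Total RNA of brain was made into TruSeq small RNA libraries. The authors deposited raw read counts per mature miRNA for 6 libraries, 3 of the 2VO group and 3 of the tilianin group, without normalization. The submitters' processing notes list FastQC 0.11.2, Trimmomatic 0.36, cutadapt 1.14 and DESeq2 1.12.4. The aligner, miRNA reference, build and counting program are not given in the sources used here. Samples were grouped by the treatment label, and columns were matched by library code.

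miRNAs with at least 10 counts in total (454 of 775) were scaled by TMM and tested with edgeR 4.0.16 (quasi-likelihood test, group as the single term; limma 3.58.1, R 4.3.3), with Benjamini-Hochberg adjustment over all tested miRNAs. Standard errors and intervals are approximate, being computed from F statistics. Log2 ratios, with 0.5 added to each count, were compared with exact permutation tests (scipy 1.17.1). The alternatives were DESeq2 size factors, library totals, the DESeq2 1.42.0 Wald test, limma-voom, no filter, filterByExpr, the replicate block, 5 counts added to ratios, and each library left out. The code was tested on simulated data.

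The members, lists and tests were chosen with earlier results of these data known. Named besides members were the 3 miRNAs most like each guide (mean of at least 10 CPM), those with related seeds, and examples from the lists. The Poisson, Wilson and exact binomial intervals and the limits for single libraries cover counting error only, where 0 counts allow 3. The intervals of the log2 fold changes also include the spread between libraries.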

Additional observations from a re-analysis of the deposited data

How the results depend on the processing

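Under the 7 settings other than leaving out a library, all 28 values of the 4 tested strands stayed negative and none passed the criterion of the study, with unadjusted p-values from 0.197 to 0.653. The estimates moved most with limma-voom and the replicate block. With limma-voom they were -0.66 for miR-128-3p, -0.84 for miR-128-1-5p, -0.58 for miR-153-3p and -0.50 for miR-153-5p. With the replicate block they were -0.65, -0.76, -0.58 and -0.50 in the same order. Replicate numbers are those of the sample titles, and 2VO replicate 3 has the library code V4. Pairing by number was not borne out by the data. The same-numbered libraries deviated from their groups with correlations of -0.12, 0.00917 and 0.30, and 1 of 3 2VO libraries was closest to its own number. Leaving out single libraries gave log2 fold changes between -0.62 and 0.19 for miR-128-3p, -0.80 and 0.0705 for miR-128-1-5p, -0.72 and -0.021 for miR-153-3p, and -0.59 and 0.0813 for miR-153-5p. The values above 0, namely 0.19, 0.0705 and 0.0813, were those without tilianin replicate 2, which gave the highest estimate for every strand. The ratios of strands kept their direction with 5 counts added, and with a library left out their group differences moved by less than the SD pooled over both groups. That of miR-128-3p to miR-153-3p ranged from -0.29 to 0.24 and so changed sign, and that of miR-128-1-5p to miR-128-2-5p ranged from -2.65 to -0.88. No estimate for miR-128-2-5p was taken under any setting, also not under no filter, since it did not reach the 10 counts of the main fit.

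Over all miRNAs, 21 were higher, 5 were lower and 33 had an unadjusted p below 0.05. The higher ones were 6 with limma-voom and 9 with the replicate block, and 7 to 29 with a library left out. The lower ones were 8 with library totals, 3 with the DESeq2 Wald test, 3 with limma-voom and 2 with filterByExpr, and 2 to 5 with a library left out. Those with an unadjusted p below 0.05 were 17 with limma-voom and 17 with the replicate block, and 9 to 53 with a library left out. For these counts, the cause was not tested. In the neuronal list, 1 miRNA had an unadjusted p below 0.05 with all libraries and 0 without tilianin replicate 2, a setting added after the data were seen. With 0 or 1 count per library, depth allows no comparison of miR-128-2-5p, and the precision of the 4 tested strands is limited by 3 libraries per group.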
